A study of Bos taurus with 12 samples.

Results

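Expression of 10 genes of the extracellular matrix was followed in calf liver: 7 collagen genes (COL1A1, COL1A2, COL3A1, COL4A1, COL4A2, COL5A1 and COL6A1), the small leucine-rich proteoglycan genes DCN and LUM, and SMOC2, which encodes a calcium-binding matricellular protein. They were picked by symbol among the 30336 genes of the count files, and all 10 passed the filter on low counts that left 13212 genes for testing. SMOC2 was chosen by its difference between the diets in these same libraries, and the rest were assembled with results of these data known. The difference between diets is therefore given for these genes as a description and not as a test of it.

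Liver was sampled by puncture biopsy from 12 Holstein heifer calves at 4 d of age, and polyadenylated RNA was sequenced on 1 lane with a stranded protocol. Dams of the 6 control calves (CON) received a close-up diet without added Met (15.3% crude protein, with 1.47 Mcal per kg of dry matter), and dams of the other 6 calves (MET) received that diet plus ethyl-cellulose rumen-protected Met, in both cases for the last 28 d prepartum. Feeding and care after birth followed 1 scheme for both groups, with first colostrum from the calf's own dam. The question was whether maternal Met supply was accompanied by a different level of these genes in the newborn liver.

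Between 8277789 and 10397604 reads were assigned to genes in a library, and the 10 genes together took 0.0631 to 0.136% of them. Libraries of CON replicates 1 and 4, and of MET replicates 1 and 3, differed from each other by little more than counting noise, with a chi-square per gene below 2 where the other 64 pairs of libraries were between 23.3 and 122. The members of such a pair were treated as a single sample, so that means and SD are over n = 5 per diet. The 12 libraries were tested as well, since the labels name 12 animals, but p-values over them are then too small. All libraries of a diet shared their first index sequence, and an effect of the index cannot be told apart from one of the diet. Expression is given as CPM, the reads of a gene scaled to a common library total, after TMM normalization, and 3 reads equal 0.277 to 0.377 of these CPM in the 12 libraries, a floor that covers counting error only.

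Collagens are the main structural proteins of the matrix. Fibrillar collagens form the fibres of the portal tracts and of the liver capsule, collagen IV forms the network of basement membranes, and collagen VI forms beaded microfibrils at the surface of cells. Decorin and lumican bind collagen fibrils and limit their thickness, and SMOC2 belongs to the SPARC family, whose members sit between cells and matrix and modulate growth factor signals. In liver, stellate cells and portal fibroblasts are the best-known sources of fibrillar collagen. In a biopsy, fewer cells of such a type and less RNA per cell cannot be told apart.

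The fibrillar collagen genes are given first, in CPM not scaled for length. COL3A1, the single chain of collagen III, had 382.9 ± 87.2 CPM in CON and 296.9 ± 85.4 CPM in MET (SD, n = 5). COL1A1 and COL1A2, the chains of collagen I, had 62.6 ± 21.8 and 59.1 ± 11.9 CPM in CON calves, and 49.2 ± 17.5 and 46.6 ± 15.2 CPM in MET calves. COL5A1, a chain of collagen V that helps to start collagen I fibrils, was at 23.0 ± 4.67 CPM in CON and 19.7 ± 5.86 CPM in MET.

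These genes lie apart from each other in the genome (UMD 3.1.1). COL1A1 spans 37088246 to 37105011 of chromosome 19 and COL1A2 11624470 to 11661163 of chromosome 4, both on the plus strand. COL3A1 spans 7317287 to 7356904 of chromosome 2 and COL5A1 106854339 to 106940898 of chromosome 11, both on the minus strand. COL6A1 lies on the plus strand of chromosome 1, at 147404396 to 147423644. Their exons are many and short, with 35 exon blocks in COL6A1 and 50 to 61 in the other 4, while DCN has 9, LUM 5 and SMOC2 17.

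Levels of different genes were compared only per kilobase of exon, as the mean over the 10 samples. COL3A1 was at 63.4 ± 17.4 and DCN at 62.3 ± 8.001 CPM per kilobase (SD, n = 10). Next came COL4A1 at 19.7 ± 6.23, COL4A2 at 15.1 ± 3.89, COL6A1 at 14.9 ± 3.43, COL1A1 at 11.8 ± 4.20 and COL1A2 at 11.4 ± 3.12 CPM per kilobase. SMOC2 at 5.74 ± 2.70, LUM at 5.27 ± 1.95 and COL5A1 at 3.01 ± 0.745 CPM per kilobase were the lowest of the 10. Within samples, 4 pairs of neighbours in this order did not differ beyond their spread, namely COL3A1 and DCN, COL4A2 and COL6A1, COL1A1 and COL1A2, and SMOC2 and LUM. The step from DCN to COL4A1 was the clearest, with a mean log2 ratio of 1.71 ± 0.40 and the same order in 10 of 10 samples. In the 4 pairs that did not differ beyond their spread, the mean log2 ratio had opposite signs in the diets, and the switch was not tested. SMOC2, for example, was at 7.97 ± 1.69 and LUM at 6.51 ± 1.58 CPM per kilobase in CON, and they were at 3.50 ± 1.03 and 4.04 ± 1.49 in MET (SD, n = 5).

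**Figure D1:**
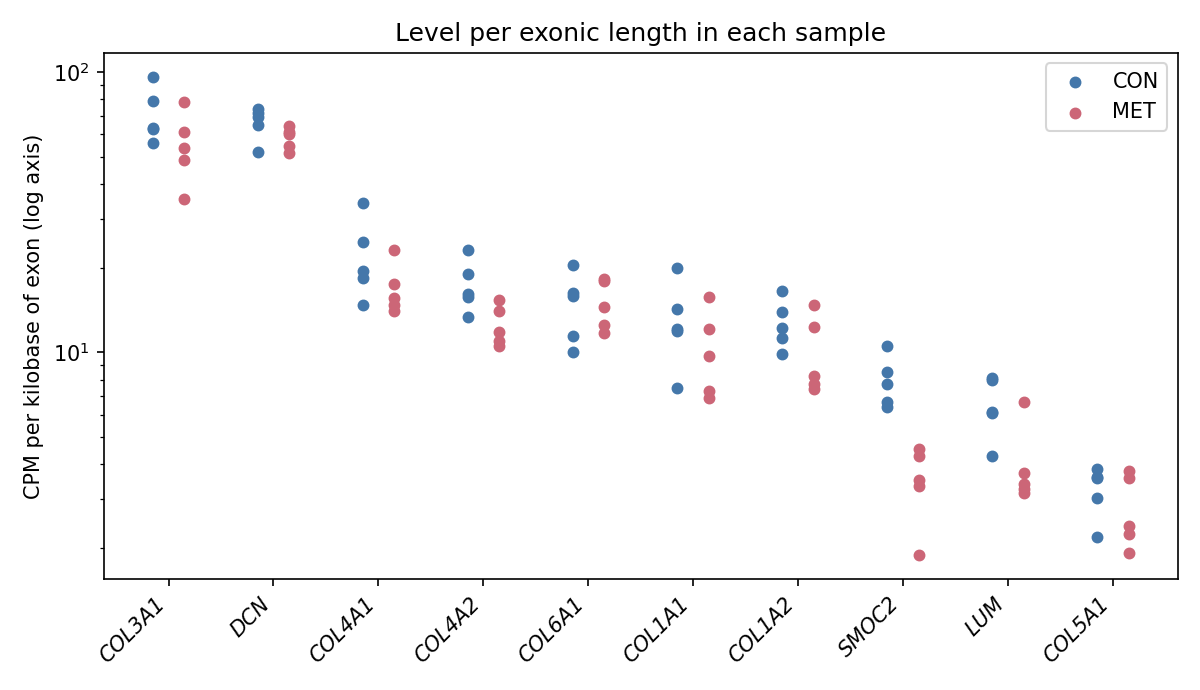
CPM per kilobase of exon (log axis) of the 10 genes in the order of their mean level, with 1 point for each of 5 CON (blue) and 5 MET (red) samples. COL3A1 and DCN lie above the other genes, and SMOC2 is the gene in which the MET points all lie under the CON points.

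Proportions of 2 pairs of chains that share a trimer were followed within samples. Per kilobase, the ratio of COL1A1 to COL1A2 was between 0.755 and 1.21 in CON and between 0.929 and 1.18 in MET samples. The ratio of COL4A1 to COL4A2 was between 1.10 and 1.46 in CON and between 1.24 and 1.51 in MET samples. The SD of the log2 ratio over the 10 samples was 0.22 for the first and 0.15 for the second pair. It was 0.18 for COL3A1 over COL4A1, which share no trimer. The 2 collagen IV genes lie head to head on chromosome 12 of the bovine assembly UMD 3.1.1, with COL4A1 at 88876125 to 89009422 on the minus strand, COL4A2 at 89009660 to 89165427 on the plus strand and 237 bases between them. Reads were assigned by strand, so that the opposite orientation keeps their counts apart.

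DCN and LUM are also neighbours, on chromosome 5 (LUM at 21037441 to 21046974 and DCN at 21080010 to 21119087, both on the minus strand, 33035 bases apart). Per kilobase, DCN exceeded LUM by a ratio of 8.13 to 12.2 in CON samples. The ratio was 8.15 in MET replicate 5 and between 16.4 and 19.7 in the other MET samples. DCN varied the least of the 10 genes among calves, with a coefficient of variation of 13.3% in CON and 8.80% in MET samples. For COL1A1 the corresponding values were 34.8 and 35.7%, the highest of the 10 genes in CON.

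SMOC2 (chromosome 9, 104225987 to 104384492, plus strand) was lower in MET calves. In CON it had 30.6 CPM in the sample of replicates 1 and 4, and 22.4, 19.2, 18.5 and 24.7 CPM in replicates 2, 3, 5 and 6. In MET it had 13.04 CPM in the sample of replicates 1 and 3, and 5.47, 9.67, 12.3 and 10.1 CPM in replicates 2, 4, 5 and 6. The highest MET value was thus below the lowest CON value, and each library had at least 56 reads of the gene. The means were 23.1 ± 4.88 and 10.1 ± 2.97 CPM (SD, n = 5), and the log2 fold change was -1.20 ± 0.20 (SE) with the 12 libraries and -1.19 ± 0.22 with the 10 samples. Samples without overlap and lower in MET were found for 1.8% of the 13186 genes compared, and among the 10 genes for SMOC2 only.

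LUM was lower in 4 of the 5 MET samples than in any CON sample. The CON values were 11.9 CPM in the sample of replicates 1 and 4, and 8.30, 15.6, 15.7 and 11.9 CPM in replicates 2, 3, 5 and 6. The MET values were 7.23 CPM in the sample of replicates 1 and 3, and 6.15, 6.33, 12.98 and 6.60 CPM in replicates 2, 4, 5 and 6. MET replicate 5 lay within the CON range. The log2 fold change was -0.70 ± 0.21 (SE), with an adjusted p of 0.0985 from the 12 libraries and of 0.211 from the 10 samples. The call over 12 libraries remained in 2 of the 12 fits in which 1 library was left out.

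**Figure D2:**
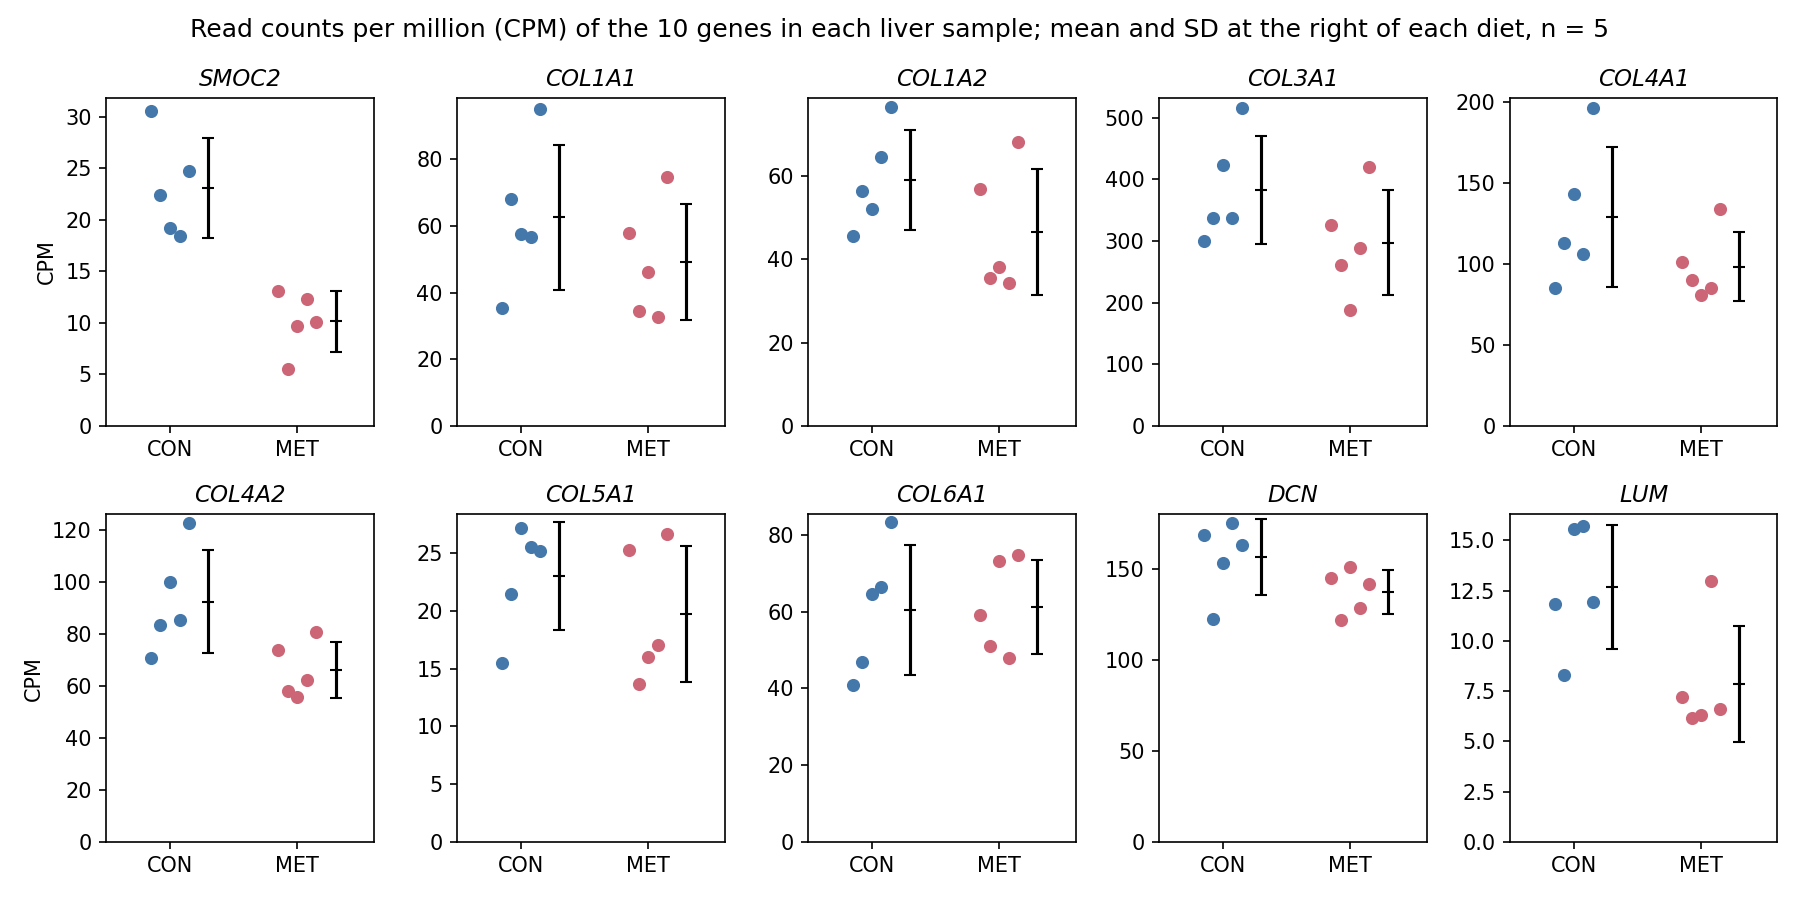
CPM of each gene in 5 CON (blue) and 5 MET (red) samples, with the mean and SD at the right of each diet. SMOC2 runs from 18.5 to 30.6 CPM in CON and from 5.47 to 13.04 CPM in MET, while the diets overlap in the other 9 genes.

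At FDR ≤ 0.10 over the 12 libraries, SMOC2 and LUM were called lower in MET, where 2.32% of all genes tested were called in that direction. No gene of the 10 was called higher. With the 10 samples, the quasi-likelihood test of edgeR called none of the 10 genes, as it called 0.0% of all genes lower, with 3 of the 10 genes (SMOC2, LUM and COL4A2) at an unadjusted p under 0.05 and lower, as were 8.52% of all genes. DESeq2 over the 10 samples called 1 of the 10 genes lower, beside 2.98% of all genes it tested. Nothing is read from these counts, because the diet difference took part in the choice of the genes.

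The basement membrane genes had lower means in MET and overlapping diets. COL4A2 in CON was at 70.7 CPM in the sample of replicates 1 and 4, and at 83.3, 100.1, 85.3 and 122.6 CPM in replicates 2, 3, 5 and 6. In MET it was at 73.7 CPM in the sample of replicates 1 and 3, and at 58.0, 55.6, 62.4 and 80.7 CPM in replicates 2, 4, 5 and 6. The lower 3 MET samples lay under all CON samples and the other 2 within their range. The log2 fold change of COL4A2 was -0.40 ± 0.15 (SE, adjusted p = 0.157 over the 12 libraries and 0.205 over the 10 samples), and that of its partner COL4A1 was -0.30 ± 0.20 (adjusted p = 0.423). COL4A1 was between 85.1 and 196.4 CPM in CON and between 80.9 and 134.0 CPM in MET.

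In the fibrillar collagens the ranges of the diets overlapped, with 3 of 5 MET samples under all CON samples for COL1A2 and COL3A1, 2 for COL1A1 and 1 for COL5A1. Log2 fold changes over the 12 libraries were -0.20 ± 0.26 (SE) for COL1A1, -0.23 ± 0.19 for COL1A2, -0.29 ± 0.19 for COL3A1 and -0.07 ± 0.20 for COL5A1, with adjusted p between 0.403 and 0.873. With the 10 samples the values were -0.34 ± 0.27 for COL1A1, -0.34 ± 0.21 for COL1A2, -0.37 ± 0.22 for COL3A1 and -0.21 ± 0.21 for COL5A1. COL6A1, a chain of collagen VI, was at 60.4 ± 16.9 CPM in CON and 61.2 ± 12.3 CPM in MET (log2 fold change 0.09 ± 0.19). Its value was 0.02 ± 0.20 with the 10 samples, and between 0.009 and 0.23 with 1 library left out, the lowest without CON replicate 4 and the highest without CON replicate 6. DCN was at 156.5 ± 20.8 CPM in CON and 137.5 ± 12.1 CPM in MET (-0.19 ± 0.11, adjusted p = 0.325). None of these 6 differences passed FDR ≤ 0.10, which does not show that the diets had equal levels. Single libraries weighed on the collagens. Without CON replicate 6 the value of COL1A1 was 0.0009 and that of COL4A1 was -0.11, and without MET replicate 6 they were -0.34 and -0.41.

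**Figure D3:**
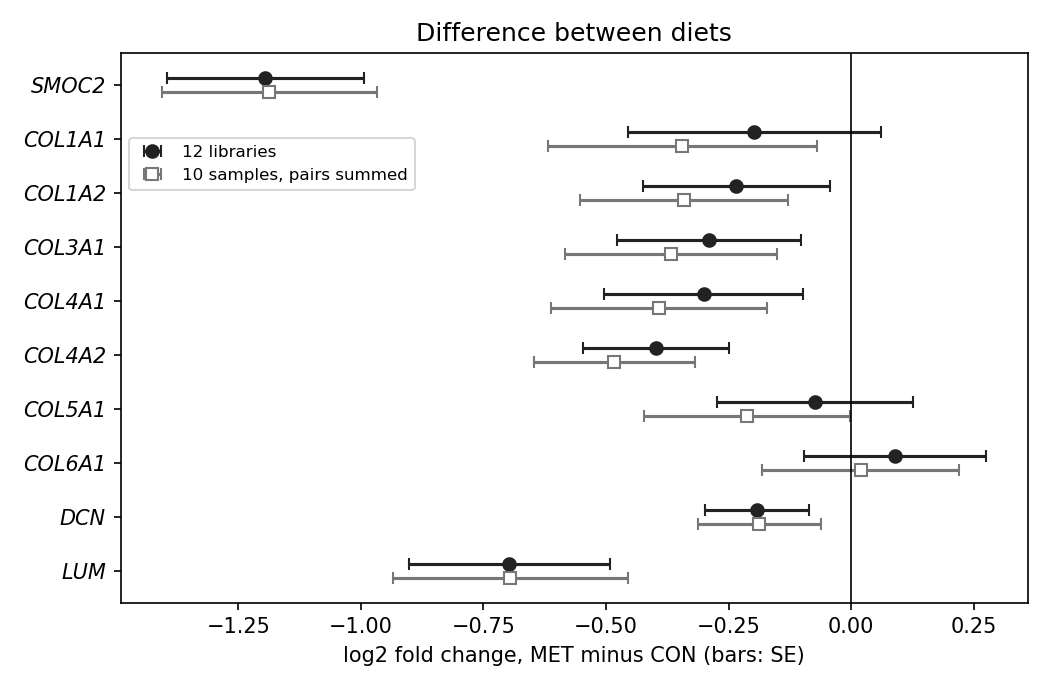
Log2 fold change (MET minus CON) of the 10 genes with its SE, over the 12 libraries (filled circles) and over the 10 samples with the reads of near-identical libraries summed (open squares). SMOC2 at -1.20 and LUM at -0.70 lie farthest from 0, and COL6A1 is the gene above 0.

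Fitted levels were lower in MET for 9 of the 10 genes. The median log2 fold change of the 9 genes other than SMOC2 was -0.23 over the 12 libraries and -0.34 over the 10 samples, beside -0.003 and -0.002 over all genes tested. Longer genes had lower values in general, with r = -0.264 between log2 fold change and log2 exonic length across genes, which are not independent replicates, and a median of -0.12 over the 4066 tested genes of at least 4000 bases. Exons of the 7 collagen genes add up to 4069 to 7092 bases. With the trend on length removed, the median of the 9 genes was -0.18, SMOC2 was at -1.17 and LUM at -0.71.

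The collagen I and III genes were spread widely within a diet. COL3A1 in CON was at 299.8 CPM in the sample of replicates 1 and 4, and at 336.8, 424.1, 338.1 and 515.9 CPM in replicates 2, 3, 5 and 6. In MET it was at 326.8 CPM in the sample of replicates 1 and 3, and at 261.0, 188.4, 288.4 and 420.0 CPM in replicates 2, 4, 5 and 6. MET replicate 4 had the lowest level, and CON replicate 6, the highest, had 2.74 times as much. COL1A1 in CON was at 35.4 CPM in the sample of replicates 1 and 4, and at 68.0, 57.6, 56.6 and 95.3 CPM in replicates 2, 3, 5 and 6. In MET it was at 57.8 CPM in the sample of replicates 1 and 3, and at 34.5, 46.2, 32.7 and 74.8 CPM in replicates 2, 4, 5 and 6. The highest COL1A1 sample had 2.92 times the level of the lowest, and samples of both diets were found near either end.

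Variation among calves of the same diet was examined next, as a measure apart from the diet difference. Log2 CPM of the 10 samples was taken after subtraction of the diet means, and p came from all 14400 permutations of samples within diets. The 7 collagen genes went up and down together: Pearson's r over their 21 pairs ran from 0.440 to 0.965 with a median of 0.768. Of these, 19 pairs had an adjusted p at or below 0.10 over the 36 pairs of the 9 genes other than SMOC2. Pairs beyond the 10 genes were not tested, so no share over all genes can be set beside this count. The sample of CON replicates 1 and 4 had the lowest CON value of all 7 collagen genes, CON replicate 6 had the highest of 6, and MET replicate 6 had the highest MET value of all 7.

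The strongest pair was that of the collagen IV genes, with r = 0.965 and rho = 0.879 (adjusted p = 0.005 and 0.0331). COL3A1 followed COL4A2 with r = 0.922 and rho = 0.939 (adjusted p = 0.0025 for both, from the smallest p that these permutations can give), and COL1A1 followed COL1A2 with r = 0.905 and rho = 0.891 (adjusted p = 0.00688 and 0.0331). COL3A1 and COL6A1 had the lowest value of the collagen pairs, r = 0.440 and rho = 0.467 (adjusted p = 0.356 and 0.333). When the 2 samples farthest from the median of a pair's first gene were left out, the median r of the collagen pairs was 0.690. Then 3 pairs kept an adjusted p at or below 0.10: COL3A1 with COL4A2, COL3A1 with COL4A1, and COL4A2 with COL5A1. COL4A1 with COL4A2 and COL1A1 with COL1A2 were no longer among them (unadjusted permutation p = 0.0139 and 0.0153). These fits hold 8 samples and have fewer permutations.

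DCN and LUM did not share this pattern in a way these data could show. Their 15 pairs, with the collagens and with each other, had r between -0.334 and 0.482 with a median of 0.0818, and none had an adjusted p at or below 0.10 or an unadjusted p at or below 0.05. Without the 2 samples farthest from the median of a pair's first gene they ran from -0.688 for DCN with LUM to 0.830 for COL6A1 with DCN, the latter with an unadjusted exact p of 0.0208. For DCN with LUM, r was 0.295 and rho 0.321 (adjusted p = 0.576 and 0.5545 by exact permutation).

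SMOC2 was not related to any of the other 9 genes beyond the spread of permutations over the 10 samples. Its r was between -0.137 with COL6A1 and 0.294 with DCN, its rho between -0.236 and 0.236, and all 9 adjusted p were 0.882 for r and 0.951 for rho, with no unadjusted p at or below 0.05. Without the sample of CON replicates 1 and 4 and MET replicate 2, the 2 farthest from its median, r lay between -0.363 and 0.401. The pooled values hold opposite signs: for 7 of the 7 collagen genes, r with SMOC2 was negative among the 5 CON samples and positive among the 5 MET samples. This difference was not tested, and 5 samples are too few to give an r. That sample of CON replicates 1 and 4 held the highest SMOC2 value and the lowest CON values of the 7 collagen genes. With 10 samples, weaker relations would not be detectable, and the difference between the SMOC2 relations and the collagen relations was not tested.

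**Figure D4:**
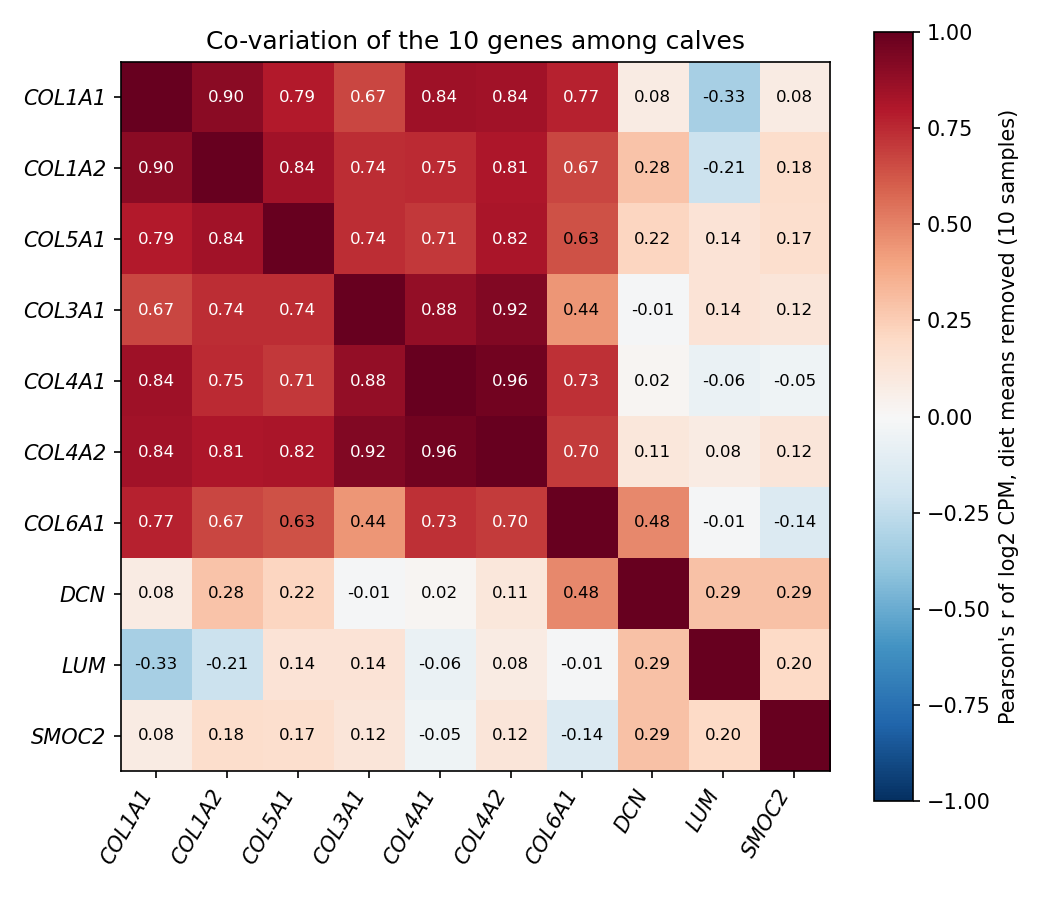
Pearson's r between the 10 genes over 10 samples, on log2 CPM with diet means removed, from -1 (blue) to 1 (red). The 7 collagen genes form a block between 0.440 and 0.965, while the 24 values of DCN, LUM and SMOC2 run from -0.334 to 0.482.

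Genes with the pattern most like SMOC2 among calves were sought over 13191 genes with a mean of at least 1 CPM, again with diet means removed. They were TDO2 (the tryptophan dioxygenase of hepatocytes, r = 0.940), the phosphatase gene CTDSP2 (0.923), BRF1 (an RNA polymerase III factor, 0.913), LOC100336282 (0.907) and TRAF3IP3 (0.902). By the same measure, the member closest to SMOC2 was DCN, at rank 3084. For the mean of COL1A1, COL1A2 and COL3A1 they were the myosin gene MYO1D (r = 0.947), THY1 (a surface protein of fibroblasts, 0.914), the splicing factor gene SF3B2 (0.913), CCDC3 (0.908) and LIPT1 (0.907). COL4A2, COL4A1 and COL5A1 took ranks 2, 8 and 22 of 13198 genes by their likeness to this mean, COL6A1 rank 234, and SMOC2, DCN and LUM ranks 4945, 5083 and 8787. These are descriptions over 10 samples, picked as the highest of all genes compared, and no p is given.

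The wider matrix was followed with 9 lists of 134 further genes, of which 113 were tested. Of these, 80 had a lower and 33 a higher fitted level in MET, that is 70.8% lower, beside 50.4% of all genes tested. The share was 67.3% over all tested genes of at least 4000 bases, a length that many of the 113 do not reach. The median log2 fold change of the 113 was -0.17. With the trend on length removed it was -0.07, beside 0.019 over all genes tested. Over the 12 libraries 2 of the 113 were called, 1.77% where 4.41% of all genes tested were called in either direction, and both were lower. They were PLOD2, a lysyl hydroxylase that prepares collagen for cross-linking (15.4 ± 3.84 CPM in CON and 9.73 ± 1.88 in MET, SD, n = 5, adjusted p = 0.0692, and 0.175 with the 10 samples), and CCN2, the connective tissue growth factor gene (4.46 ± 0.966 and 2.93 ± 0.466 CPM, adjusted p = 0.0846, and 0.201 with the 10 samples). Between the 10 samples, the exact two-sided permutation p was 0.00794 for PLOD2, the smallest that these samples can give, and 0.0238 for CCN2. Both genes were named for their call in this same contrast, so these p are descriptions and no further test. CON replicate 3 was far above the other CON samples for PLOD2, at 22.3 CPM. With the 10 samples the quasi-likelihood test of edgeR called 0 of the 113, with 22 (19.5%) at an unadjusted p under 0.05, beside 16.3% of all genes tested.

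Among 4 further fibrillar collagen genes tested, all had a negative log2 fold change (median -0.25), and COL5A2, the partner chain of COL5A1, was at 41.1 ± 7.32 CPM in CON and 32.7 ± 4.45 CPM in MET (adjusted p = 0.334). Of 16 further basement membrane genes, 15 had a negative value (median -0.23), none called. The most expressed of them per length were COL18A1 (log2 fold change -0.12), the nidogen gene NID1 (-0.23) and the laminin chain gene LAMB1 (-0.28). Of 13 other collagen genes, 11 had a negative value (median -0.16), and COL6A2, the partner of COL6A1, was at -0.06. Of the 5 other leucine-rich proteoglycan genes, 4 had a negative value (median -0.27), among them BGN (-0.29 ± 0.14 SE) and ASPN (-0.34 ± 0.18).

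The SPARC family, to which SMOC2 belongs, was followed as well. Of 6 other SPARC family genes tested, 4 had a negative and 2 a positive value, with 0 called and 0 at an unadjusted p under 0.05 over the 12 libraries, beside 4.41 and 20.5% of all genes tested. With so few genes nothing is read from these counts. SPARC itself was at 520.5 ± 87.3 CPM in CON and 432.0 ± 78.5 CPM in MET (log2 fold change -0.21 ± 0.14 SE, adjusted p = 0.426), SPARCL1 was at -0.21 and FSTL1 at 0.42. SMOC1, the closest relative of SMOC2 and named here after its values were seen, was at 96.5 ± 27.2 CPM in CON and 88.8 ± 24.5 CPM in MET (-0.08 ± 0.20, adjusted p = 0.852).

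The 21 collagen processing genes were divided, with 9 positive and 12 negative values (median -0.07) and PLOD2 the one called. PPIB, P4HB and PLOD3, which fold, hydroxylate and glycosylate collagen chains, had values of 0.24, 0.20 and 0.02. The 10 matrix turnover genes were split 5 to 5, with none called. By the quasi-likelihood test, 5 of them had an unadjusted p under 0.05 over the 12 libraries, in both directions, beside 20.5% of all genes tested. Over the 10 samples it was 4, beside 16.3%, and with so few genes nothing is read from these counts. The 21 other matrix proteins were 8 positive to 13 negative, with none called. Among these 21 were VTN (-0.01), FN1, the fibronectin gene (-0.35 ± 0.15 SE, adjusted p = 0.199), and MGP (-0.29). Of the 17 genes of the TGF-beta pathway, a main inducer of collagen genes, 12 had a negative value, with CCN2 the one called.

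**Figure D5:**
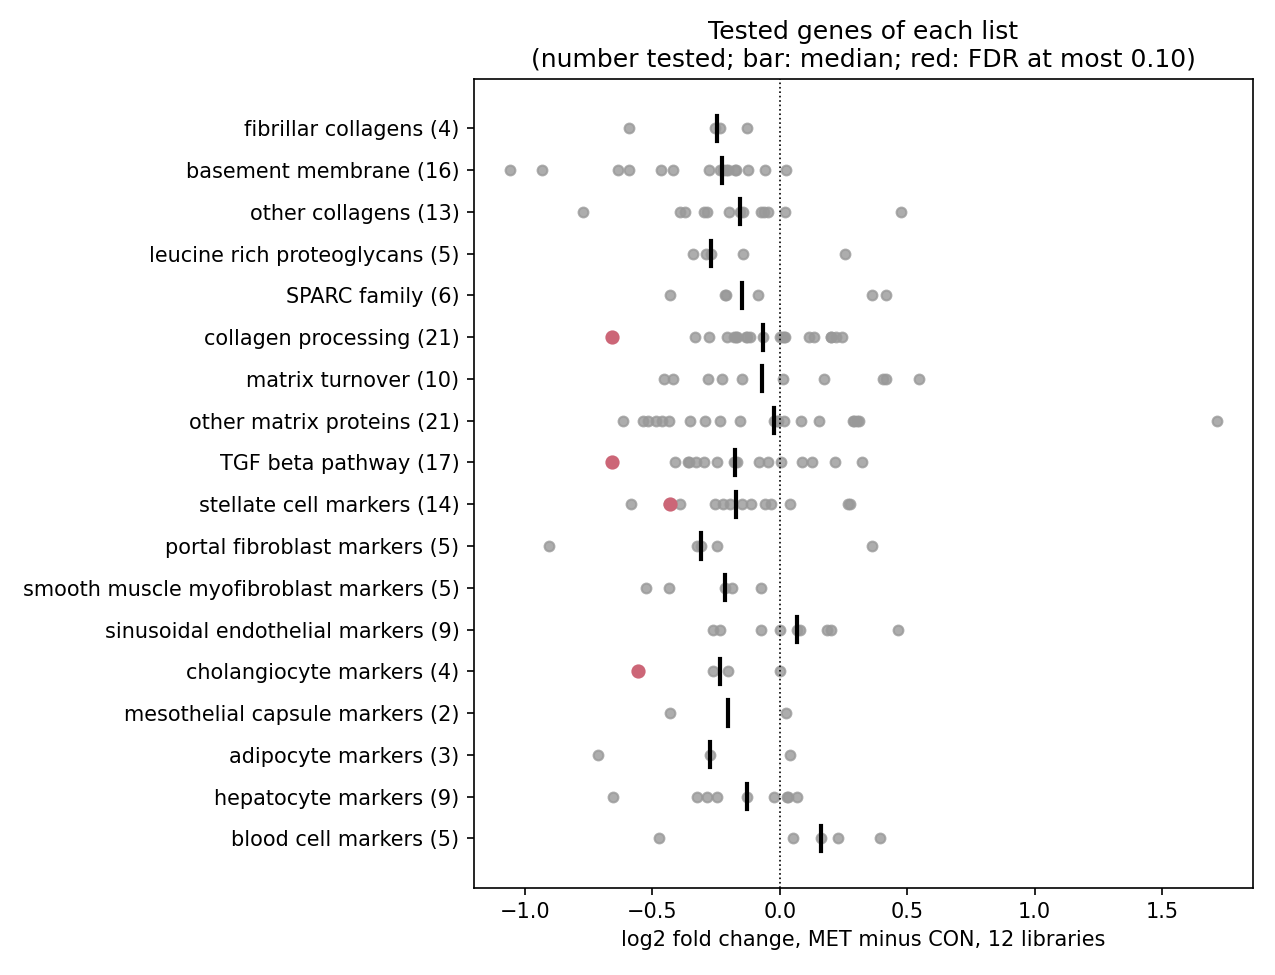
Log2 fold change (MET minus CON, 12 libraries) of each tested gene of 9 matrix lists and 9 marker lists, with the median of each list as a black bar and genes at FDR ≤ 0.10 in red. The 4 red points, PLOD2, CCN2, HGF and CFTR, all lie left of 0, and the point farthest to the right is TNC (1.72, adjusted p = 0.123), named after its values were seen. TNC samples run from 11.05 to 30.8 CPM in CON and from 20.0 to 211.6 CPM in MET, so the diets overlap.

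Markers of the cells that a liver biopsy can hold were summed per sample. Hepatocyte markers were the most abundant, at 136920 to 185850 CPM in CON and 114500 to 145070 CPM in MET samples. Their median was 171770 CPM in CON and 139810 CPM in MET (exact two-sided permutation p = 0.0317, adjusted p = 0.285 over 9 marker lists), and ALB, the albumin gene, held the largest part of it in CON. ALB was at 62223 ± 13404 CPM in CON and 39451 ± 8761 CPM in MET (log2 fold change -0.65 ± 0.20 SE, adjusted p = 0.107), and of the 9 markers 6 had a negative and 3 a positive value (list median -0.13). The 14 stellate cell markers summed to 420.2 to 584.2 CPM in CON and 354.1 to 544.5 CPM in MET, with 11 negative and 3 positive log2 fold changes and HGF called. HGF was at 33.3 ± 7.61 and 24.1 ± 2.15 CPM (adjusted p = 0.0995 with the 12 libraries and 0.188 with the 10 samples). Its exact permutation p of 0.00794 comes from the contrast for which it was named and is no further test. Portal fibroblast markers summed to 79.3 to 122.4 CPM in CON and 102.0 to 165.1 CPM in MET. CLEC3B held most of that sum and had a positive log2 fold change of 0.36, while the other 4 tested markers were negative (list median -0.31). The sum of the smooth muscle and myofibroblast markers was 128.1 to 230.4 CPM in CON and 88.8 to 266.8 CPM in MET. Cholangiocyte markers were at 50.8 to 78.1 CPM in CON and 30.5 to 67.8 CPM in MET, with CFTR called lower (adjusted p = 0.0889 with the 12 libraries, and not called with the 10 samples at 0.195). Sinusoidal endothelial markers were at 432.0 to 633.2 CPM in CON and 401.3 to 627.0 CPM in MET. All these ranges overlapped between the diets, and their part in the difference of SMOC2 was not tested.

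Mesothelial markers were low, at 5.26 to 12.2 CPM in CON and 3.80 to 11.2 CPM in MET. Of 9 skeletal muscle markers, ACTA1, CKM and MYH2 had no read in any library and the other 6 at most 3 reads in a library. ADIPOQ and LEP, which define adipocytes, had no read, and the 5 adipocyte markers together stayed between 2.30 and 7.37 CPM. Blood cell markers ranged from 227.2 to 1164 CPM in CON and from 286.9 to 726.7 CPM in MET.

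Among calves of the same diet, the mean of the 7 collagen genes went with the summed portal fibroblast markers (r = 0.813, rho = 0.806), a sum held mostly by CLEC3B. It also went with the smooth muscle and myofibroblast markers (r = 0.759, rho = 0.709) and the cholangiocyte markers (r = 0.738, rho = 0.733). None of 22 such relations passed the adjustment (adjusted p = 0.142 for each of these r by exact permutation, and 0.246, 0.263 and 0.263 for rho). Without the 2 samples farthest from the marker's median, r was 0.304, 0.629 and 0.827. For the stellate cell markers r was 0.101 and rho 0.115 (adjusted p = 0.850 and 0.811), and without 2 samples r was 0.509. SMOC2 had r = 0.723 and rho = 0.673 with the number of counted reads (adjusted p = 0.142 and 0.263), and r = 0.511 without the 2 farthest samples. With the hepatocyte markers it had r = 0.693 and rho = 0.503 (adjusted p = 0.166 and 0.492 by exact permutation), and r = 0.183 without the 2 farthest samples. With the trend of a sample on gene length, r was -0.328 for the collagen mean and 0.227 for SMOC2.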

How the data were processed

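Liver RNA-seq libraries of 12 calves were mapped to diet and replicate by their labels. The authors aligned reads to UMD 3.1.1 with STAR 2.5.3a and deposited raw counts of reads per Entrez gene from featureCounts 1.5.2 (Subread), counted by strand and without normalization. Symbols came from a RefSeq gene table of another assembly, which named 25089 of 30336 IDs, and positions came from the count files. SPOCK3 was not analysed here.

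CPM (TMM), log2 fold changes and tests were obtained with edgeR 4.0.16 in R 4.3.3 over all genes kept by its default filter (minimum count 10, minimum total 15). Diet was the only term, with the quasi-likelihood test, Benjamini-Hochberg adjustment and FDR ≤ 0.10 as threshold. The SE given for a log2 fold change is its absolute value divided by the square root of the F statistic of that test. CPM of merged libraries were averaged, and their reads were summed for fits over 10 samples. For single genes, log2 CPM (prior count 2) was compared by two-sided exact permutation over 252 arrangements. Correlations, calculated in Python 3.11.15, used these values with diet means removed. Ratios of partner genes are given without their test, because they come from the contrast that chose the genes.

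The members and lists were chosen with earlier results of these data known. Named genes were all 10 members, list genes at FDR ≤ 0.10 and otherwise up to 3 of a list by level per length, and the 5 most alike genes. Pairs among the 9 genes other than SMOC2, and relations to markers, depth and length, were added after seeing the data. Alternatives covered normalization, test (DESeq2 1.42.0, voom of limma 3.58.1), filter, library pairs, replicate block, libraries left out and gene length (loess, span 0.5). Steps were tested on simulated data. The labels name 12 calves, and for the near-identical libraries the spread behind a p-value may be technical.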

Additional observations from a re-analysis of the deposited data

Results flagged for a closer look

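In groups of 5 samples, a value was singled out when its gap to the nearest other sample was more than 0.71 of the whole range. Of 38 groups examined, 5 met this, where chance gives about 1 in 20 for independent groups. The 5 are not independent, since LUM and the ratio of DCN to LUM share a value, and PLOD2, HGF and CFTR share a sample. No excess over chance is read from them. LUM in MET replicate 5 was at 12.98 CPM, with the other 4 MET samples between 6.15 and 7.23 CPM, and the ratio of DCN to LUM per kilobase was 8.154 there, with the others between 16.4 and 19.7. This library also stood apart over all genes. Its chi-square per gene was 47.8 with MET replicate 4 and between 64.8 and 122 with each of the other libraries. CON replicate 3 was the highest CON sample for PLOD2 (22.3 CPM, others 13.4 to 13.9), HGF (46.66 CPM, others 27.3 to 31.3) and CFTR (14.64 CPM, others 8.34 to 10.1), which are 3 of the 4 list genes called over the 12 libraries.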

How the results depend on the processing

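SMOC2 stayed negative under all 25 alternatives (log2 fold change -1.28 to -1.06, adjusted p 2.85e-05 to 0.161) and past FDR ≤ 0.10 in 22 of them. It did not pass in the quasi-likelihood fits with library pairs summed (adjusted p = 0.156, and 0.161 with the length trend removed). Nor did it pass with a replicate block (adjusted p = 0.137). Among the fits that passed, only DESeq2 with pairs summed joined the near-identical libraries. As the gene was chosen by this contrast, the tally is a description. LUM stayed negative in all 25 (-0.90 to -0.62, adjusted p 0.0353 to 0.259) and past the threshold in 8. Of the 10 genes, 2 were called with all 12 libraries. The number was 1 with library size only, without a filter and with the length trend removed. It was 0 with library pairs summed, and 1 and 0 with pairs summed under DESeq2 and with the length trend removed, both added after seeing the data. With 1 library left out it was 1 to 2. Over all genes tested, 583 were called, beside 107 with library size only, 1314 with DESeq2, 238 without a filter, 245 with the length trend removed and 0 with pairs summed (2165 at an unadjusted p under 0.05; 639 called by DESeq2), also with the length trend removed. With 1 library left out the number ran from 26 (CON replicate 1) to 565. With replicate numbers as a replicate block, 0 of the 10 genes and 6 genes in all were called. Deviations of same-numbered libraries from the diet means correlated with r from -0.190 to 0.148 over the genes tested. Whether the numbers mark a block that some genes share was not tested. COL5A1 changed sign with the length trend removed (0.056) and without CON replicate 3 (0.0003) or MET replicate 2 (0.022), and COL1A1 without CON replicate 6 (0.00092), none of them past the threshold. With 1 library left out, COL5A1 ran from -0.165 to 0.022 and COL1A1 from -0.344 to 0.00092. Of 36 pairs among the other 9 genes, 19 passed the adjustment, and 3 did without the 2 farthest samples, with no share over all genes to set beside them. SMOC2 passed with none of the 9 genes under any setting. The cause of these shifts was not tested, beyond the smaller number of samples. Depth limits LUM the most of the 10 genes, with 55 to 151 reads per library.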
